A study of Mus musculus with 6 samples.

Results

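The core genes of the Hedgehog signalling pathway, Gli1, Gli2, Gli3, Ptch1, Smo, Hhip and Sufu, were followed across cultured mouse lung fibroblasts that lacked or carried Mmp19, a secreted matrix metalloproteinase. The 7 genes were picked by name and found on the array by RefSeq accession. They had 10 probes, of 20018 named genes and 55681 probes in all. Both groups came from mice of 11 weeks, labelled female, that had received 0.08 units of bleomycin into the trachea, a drug that damages DNA and is used to bring about lung fibrosis in rodents. Lungs were taken on day 21, and the fibroblasts were grown for 72 hours in culture before RNA was extracted. Cells with the Mmp19 knockout (3 arrays) were set against wild-type cells (WT, 3 arrays). No array held cells of mice without bleomycin. The sex-linked genes, given below, did not match the female label. The labels do not say how Mmp19 was inactivated, from how many animals each culture came or how many passages it had, and the knockout is described for the whole mouse and not for 1 cell type. The series text speaks of independent experiments, so the spread between arrays is taken as that between cultures.

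Hedgehog ligands are secreted proteins that bind the receptor Patched, which otherwise keeps the membrane protein Smoothened, encoded by Smo, inactive. Once released, Smoothened acts in the primary cilium to free the Gli transcription factors from Sufu, and Gli-driven transcription includes Gli1, Ptch1 and Hhip themselves. In the developing lung the epithelium makes Sonic hedgehog and the mesenchyme, from which fibroblasts derive, responds to it.

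Gli2, the main activating Gli factor, and Hhip, a membrane protein that binds and sequesters Hedgehog ligands, were above background on wild-type replicates 1 and 3 and on 0 knockout arrays. Because they shared this pattern, their promoter windows are shown, each from 250 bases before to 50 bases after the RefSeq start of the gene on GRCm38.p6, minus strand, 5′ to 3′, with CpG dinucleotides in capitals. The Gli2 window is chr1:119053570-119053869 and the Hhip window chr8:80057959-80058258.
Gli2: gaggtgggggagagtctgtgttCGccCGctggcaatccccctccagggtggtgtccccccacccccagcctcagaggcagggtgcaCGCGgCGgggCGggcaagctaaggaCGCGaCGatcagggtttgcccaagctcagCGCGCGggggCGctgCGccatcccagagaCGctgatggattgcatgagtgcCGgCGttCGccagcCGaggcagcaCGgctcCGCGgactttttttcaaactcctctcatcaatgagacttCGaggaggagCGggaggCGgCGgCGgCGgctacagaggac
Hhip: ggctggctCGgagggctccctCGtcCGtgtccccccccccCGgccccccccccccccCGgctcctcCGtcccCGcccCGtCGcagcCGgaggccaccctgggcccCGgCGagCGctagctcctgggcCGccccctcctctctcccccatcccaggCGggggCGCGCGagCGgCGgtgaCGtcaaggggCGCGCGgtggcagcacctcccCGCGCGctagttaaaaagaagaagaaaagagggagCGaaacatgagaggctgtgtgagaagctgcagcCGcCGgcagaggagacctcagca
The windows held 28 CpG in Gli2 and 30 in Hhip, and had a GC content of 67.3% and 73.7%. Over all 32851 promoter windows of that table the median was 7 CpG, with quartiles of 3 and 20, and the median GC content was 52.7%. Of the 7 genes, 6 matched the table. Among the other 4, CpG counts were 47 in Ptch1, 39 in Gli3, 17 in Smo and 12 in Sufu, so that all 6 windows lay above the median. The letters GACCACCCA, the consensus bound by Gli factors, and their reverse complement TGGGTGGTC were found in 0 of the 6 windows and in 83 of 32851 (0.253%). The motif contains no CpG and so shares none of the capitals with it. The arrays measured neither methylation nor binding at these windows.

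Array values are given as normalized log2 signals, the log2 processed intensity minus the 75th percentile of the same array, so that 0 stands for that percentile. Levels of different probes are not set against each other, because each probe has its own brightness. A probe entered the test where the scanner software marked it as well above background on every array of either group. Of the 7 genes only Gli3 and Smo met this, with 1 and 2 probes, and both were above background on all 6 arrays. Neither passed the test between knockout and wild-type cells. By limma, with Benjamini-Hochberg adjusted p-values over 24214 probes and a threshold of 0.05, 0 of the 2 genes passed, beside 598 of 12470 genes tested (4.80%). At an unadjusted p below the same value stood 0 of their 3 probes, beside 5117 of the 24214 (21.1%). Of all genes tested 3.30% rose and 1.49% fell. Of all probes tested 4.64% passed, with 2.88% higher and 1.76% lower in knockout cells. Of the 3 probes tested, 0 had groups that did not overlap, beside 29.5% of all probes tested. Of the other 5 genes, Gli2 and Hhip were above background on 2 wild-type arrays and 0 knockout arrays, Sufu on some arrays of both groups, and Gli1 and Ptch1 on 0 arrays. In bulk RNA of this kind, fewer cells of a type and less RNA per cell cannot be told apart.

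**Figure D1:**
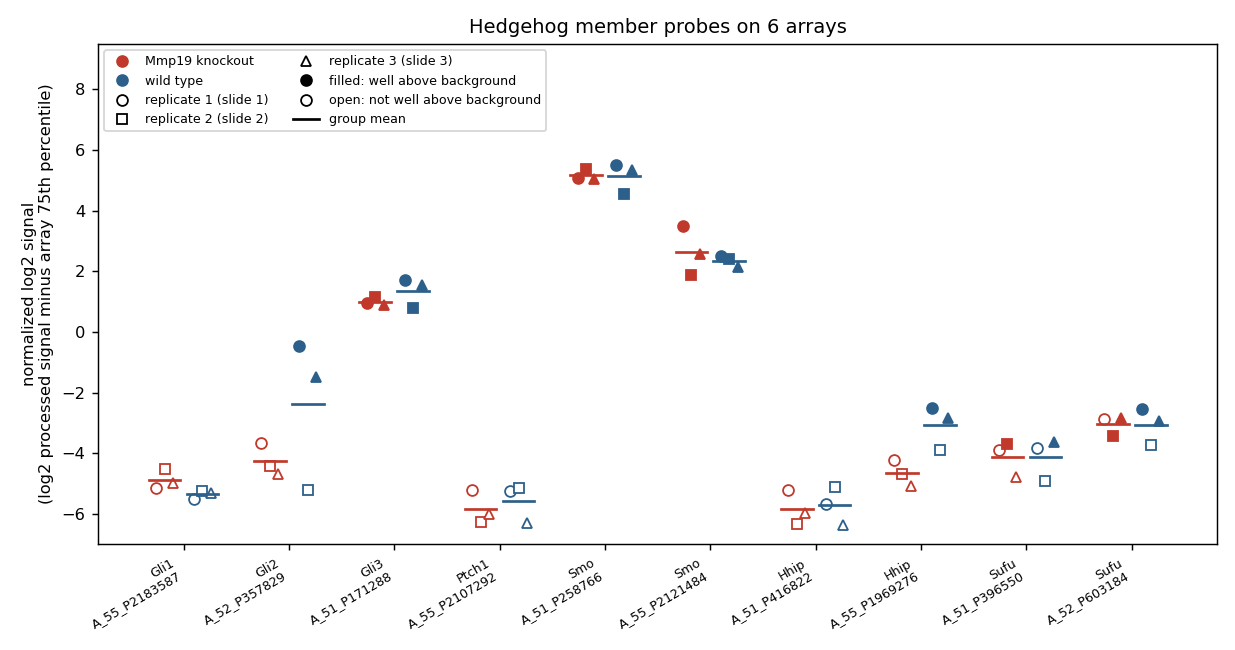
Normalized log2 signal (vertical axis, log2 processed signal minus the 75th percentile of the array) of the 10 probes of the 7 genes, with knockout arrays in red left of wild-type arrays in blue, marker shapes for replicates and slides, filled markers for arrays well above background and bars for group means. Gli2 and Hhip show filled wild-type markers for replicates 1 and 3 only, and Gli3 and Smo overlap between groups.

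Smo, the transducer whose activity Patched restrains, was read by 2 probes. On the brighter one, A_51_P258766, knockout arrays gave 5.09, 5.37 and 5.05, against 5.49, 4.55 and 5.35 on wild-type arrays. The wild-type arrays held both the highest and the lowest value, and the knockout arrays lay between them. The means were 5.17 ± 0.18 in knockout and 5.13 ± 0.51 in wild-type cells (SD, n = 3 each), a log2 difference of 0.04 ± 0.29 (SE) with a 95% interval from -0.66 to 0.74 and an adjusted p of 0.957 by limma. Its sign was not settled: 8 of 18 alternative settings gave a negative difference, among them quantile normalization (-0.08), and without wild-type replicate 2 it was -0.25. On the other probe, A_55_P2121484, the normalized values were 3.48, 1.87 and 2.58 in knockout cells, against 2.52, 2.40 and 2.14 in wild-type cells. Here the spread lay in the knockout group, which held the highest and the lowest array. The log2 difference was 0.29 ± 0.41 (SE), with a 95% interval from -0.67 to 1.25 and an adjusted p of 0.723 by limma. Without knockout replicate 1 it was -0.13, and without knockout replicate 2 it was 0.68. The probes disagreed on each slide: slides 1, 2 and 3, which each carried the knockout and wild-type arrays of 1 replicate number, gave -0.40, 0.82 and -0.30 on the first and 0.96, -0.53 and 0.44 on the second. Both are listed under the same Smo accession. The intervals allow changes of either sign on both probes.

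Gli3, which in its processed form is the main repressor of Hedgehog targets, had normalized values of 0.97, 1.14 and 0.88 in knockout cells, against 1.70, 0.78 and 1.55 in wild-type cells. Wild-type replicates 1 and 3 lay above all knockout arrays and wild-type replicate 2 below them, so the groups overlapped. The log2 difference was -0.35 ± 0.29 (SE, n = 3 each), with a 95% interval from -1.02 to 0.33 and an adjusted p of 0.531 by limma. Within slides it was -0.73, 0.37 and -0.67. The difference was -0.63 without wild-type replicate 2 (adjusted p = 0.119 by limma), -0.16 without wild-type replicate 1 and -0.60 with array weights (adjusted p = 0.0530 by limma). It was negative in 18 of 18 alternatives, some of which cannot change it, and past the threshold in 0.

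Among the 7 genes, Gli2 had the widest spread between wild-type arrays (SD 2.49 on the normalized log2 scale). Its processed intensity was 11.0, 15.3 and 9.63 in knockout cells, against 137, 5.74 and 103 in wild-type cells. On the normalized log2 scale these were -3.65, -4.42 and -4.67 in knockout cells, against -0.47, -5.21 and -1.50 in wild-type cells. Wild-type replicates 1 and 3 were well above background and far above every knockout array, while wild-type replicate 2 was at background and the lowest of all 6. The lowest intensity of any probe well above background was 17.6, 17.5 and 15.6 on the knockout arrays, against 15.7, 22.3 and 14.0 on the wild-type arrays, so the knockout values carry only a bound. A bound is the mean of the brighter group over all its arrays against the dim group's mean, in which each array takes the probe's own signal or the lowest signal well above background, whichever is higher. By this measure, which holds for the main processing only, Gli2 was 2.52-fold lower in knockout cells (measured log2 difference -1.86). Wild-type replicate 2 entered at its own signal at background, so the value rests on wild-type replicates 1 and 3. It is no lower limit across the arrays, since the groups overlapped. The gene was not tested, since wild-type replicate 2 missed the background criterion. Under a criterion of 2 arrays of a group, chosen after seeing the data, the adjusted p was 0.423 by limma, and with no criterion 0.732. The measured difference was -3.26 without wild-type replicate 2, -0.90 without wild-type replicate 1 and -0.66 with normexp background correction. The normexp setting added an offset of 50 to every signal, which by itself shrinks log2 differences of dim probes.

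Hhip had 2 probes. A_55_P1969276 gave processed intensities of 7.46, 12.8 and 7.31 in knockout cells, against 33.4, 14.4 and 40.7 in wild-type cells, or normalized values of -4.22, -4.67 and -5.07 in knockout cells, against -2.51, -3.88 and -2.83 in wild-type cells. Every wild-type array lay above every knockout array, but only wild-type replicates 1 and 3 were above background. On this probe the signal was 1.57-fold lower in knockout cells by the same bound, in which wild-type replicate 2 entered at its background signal. The measured log2 difference was -1.58, and -1.71, -0.79 and -2.24 within slides. Under the criterion of 2 arrays the adjusted p was 0.103 by limma, with no criterion 0.267. With normexp the difference shrank to -0.36. The second probe, A_51_P416822, was not well above background on any array, with normalized values from -6.33 to -5.22 in knockout cells and from -6.37 to -5.12 in wild-type cells, and carries no measurement of the gene.

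Gli1, the Gli factor that is itself induced by the pathway, was not well above background on any array. Its normalized values were -5.16, -4.52 and -4.98 in knockout cells, against -5.52, -5.23 and -5.30 in wild-type cells, and no fold is given between values at background. Ptch1, the receptor and a target of the pathway, was likewise not above background on any of 6 arrays. It had -5.22, -6.28 and -6.00 in knockout cells, against -5.24, -5.16 and -6.31 in wild-type cells. Each gene had 1 probe, so the data hold no second reading of either. Sufu, the cytoplasmic inhibitor of Gli factors, lay close to the detection limit. Its probe A_52_P603184 was above background on 2 arrays of each group, with normalized values of -2.89, -3.42 and -2.84 in knockout cells, against -2.54, -3.74 and -2.94 in wild-type cells. The wild-type range enclosed all 3 knockout values, and the difference was 0.03 (adjusted p = 0.979 by limma under the criterion of 2 arrays), with 7 of 18 alternatives giving a negative sign. Its other probe, A_51_P396550, was above background on 1 array of each group and differed by 0.01.

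**Figure D2:**
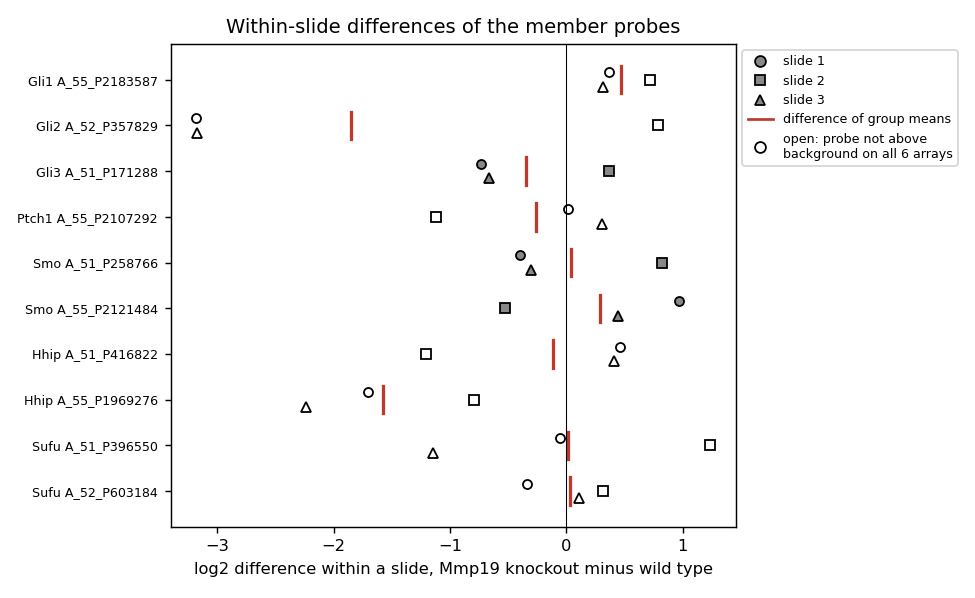
Log2 difference of knockout minus wild type within each of 3 slides (horizontal axis) for the 10 probes, with a red bar at the difference of group means and open markers for probes not above background on all 6 arrays. Slide 2 lay on the opposite side of 0 from slides 1 and 3 for Gli3 and both Smo probes, beside 27.2% of all probes tested. It did so for Gli2 too (0.79, against -3.18 and -3.17), where both arrays of slide 2 were at background. The same sign pattern of Ptch1, Hhip A_51_P416822 and Sufu A_51_P396550 lay at or near background and is not read.

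Slide 2 carried replicate 2 of both groups. It had the opposite sign from both other slides for 7 of the 10 probes. These were the probes of Gli2, Gli3 and Smo, the Ptch1 probe, Hhip A_51_P416822 and Sufu A_51_P396550. The last 3 were at or near background, as was Gli2 on both arrays of slide 2, and no sign is read from these. The opposite sign held for the 3 probes tested, beside 27.2% of all tested probes with a value on every array. For Gli3 and the brighter Smo probe the lowest array was wild-type replicate 2. For Smo A_55_P2121484 it was knockout replicate 2 (1.87), while wild-type replicate 2 (2.40) lay inside its group. The 75th percentile of processed intensity ran from 138 to 328 on the knockout arrays and from 190 to 290 on the wild-type arrays, and 43.1% to 52.5% and 44.6% to 54.5% of spots were well above background. Mmp19 itself was well above background on 0 of 3 knockout and 3 of 3 wild-type arrays and was at least 5.33-fold lower in knockout cells (adjusted p = 0.0160 by limma, past the threshold in 13 of 17 alternatives that tested it). The Mmp19 call was lost with normexp (log2 difference -1.40, adjusted p = 0.0759), with no criterion for dim probes (0.0554) and without knockout replicate 3 (0.0900) or wild-type replicate 3 (0.0774 by limma). Of 8 fibroblast markers, 8 were tested and 7 were above background on all 6 arrays. The collagens Col1a1 (1.47, adjusted p = 0.0307) and Col1a2 (1.25, adjusted p = 0.0415 by limma) rose. Dcn (-0.75) and Vim (-0.11) lay below 0 and did not pass. Wild-type replicate 2 was the lowest of all 6 arrays for Dcn, with 2.74, against at least 7.85 on the other wild-type arrays. It was also the lowest for Lum, with -4.65, at background, against -0.43 and -1.08. For Pdgfra it was the lowest too (0.87), whereas for Col1a2, Col3a1, Thy1 and Vim it was the highest wild-type array. Of 9 lung epithelial markers, 6 were above background on all 6 arrays, the surfactant genes Sftpc, Sftpb and Sftpa1 among them, and Epcam and Nkx2-1 on 0. Their summed level ran from 4.96 to 5.87 on knockout arrays and from 5.26 to 5.58 on wild-type arrays, and 0 of 6 tested passed. Of macrophage and endothelial markers, 0 of 4 and 0 of 5 tested passed. Of 6 mural and smooth muscle markers tested, Myh11 (2.98, adjusted p = 0.0109) and Des (2.49, adjusted p = 0.0316 by limma) rose and 0 fell. Of 7 mesothelial markers 5 rose in knockout cells and 0 fell, with a median log2 difference of 3.78. The summed level of these 7, like the others as log2 of the summed scaled signals, ran from 5.25 to 6.66 on knockout arrays and from 1.02 to 4.04 on wild-type arrays. None of the 7 was at background on all arrays. Of the sex-linked genes, Xist was above background on 3 knockout and 0 wild-type arrays (log2 difference 5.02, adjusted p = 0.00323 by limma). Of the Y-linked genes, Kdm5d was above background on 0 arrays and Uty on 0 knockout and 1 wild-type array. Eif2s3y and Ddx3y were above background on all 6, with log2 differences of -3.21 and -2.47 (adjusted p = 0.112 and 0.139 by limma). Eif2s3y varied widely in knockout cells (2.19, -1.77 and 0.67). The values of Xist, Eif2s3y and Ddx3y go against the label of female for all 6 cultures, and the sex of the cultures may differ between the groups. The part of the replicate 2 arrays, the fibroblast, mural and mesothelial markers and the sex-linked genes in the Hedgehog values was not tested.

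The array patterns of the 2 detectable members were compared with those of 11292 named genes above background on all 6 arrays, after centring each on its own mean. The root mean square difference from the brighter Smo probe was smallest for Bri3bp (0.0577) and Smg6 (0.0583). From Gli3 it was smallest for Ddx52 (0.0394) and Bin1 (0.0462). Each of these 4 genes shared the dip on wild-type replicate 2 by construction of the measure, and none passed the test between groups. Gli3 and the brighter Smo probe differed from each other by 0.195.

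Around the 7 genes, 4 of 55 tested genes in the other pathway lists passed the threshold, 3 higher and 1 lower in knockout cells, beside 4.80% of all genes tested. Of the receptors and co-receptors 1 of 5 rose and 0 fell, and the median log2 difference was 0.70, beside 0.08 over all genes tested. Boc, a co-receptor that binds the ligands, had -0.90, -0.48 and -0.74 in knockout cells, against -2.07, -2.14 and -1.94 in wild-type cells. The groups were well apart and it rose by 1.34 ± 0.20 (SE, adjusted p = 0.0213 by limma). Because the groups did not overlap, the rise in all 3 slides (1.17, 1.66 and 1.20) followed from the same values. The call was lost with the slide as a block (adjusted p = 0.0707), with normexp (0.0955), with no criterion for dim probes (0.144) and without knockout replicate 2 or 3 or wild-type replicate 1 or 3 (0.0556 to 0.114). The other 4, Cdon, Gas1, Gpc3 and Lrp2, had differences from 0.42 to 0.72 and did not pass. The sign turned for Gas1 without wild-type replicate 2 (-0.42) and for Lrp2 without wild-type replicate 1 (-0.77).

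Upstream, none of the ligand genes passed. Shh, the ligand of the lung epithelium, was not above background on any array. Dhh, a ligand known from peripheral nerve and testis, had normalized values of -4.81, -3.23 and -4.08 in knockout cells, against -3.17, -2.13 and -2.79 in wild-type cells. Its groups lay just apart and its difference of -1.35 ± 0.45 missed the threshold (adjusted p = 0.154 by limma), with 1 knockout and 3 wild-type arrays above background. Ihh, a ligand known from growing cartilage, was above background on 0 knockout and 2 wild-type arrays. It had -4.55, -4.74 and -3.95 in knockout cells, against -3.06, -3.03 and -2.85 in wild-type cells. By the bound used for Gli2 it was 1.67-fold lower in knockout cells, with wild-type replicate 2 entered at its background signal. It was not tested by the main criterion and met the criterion of 2 arrays through the wild-type arrays alone. Its adjusted p was 0.0447 by limma under that criterion and 0.165 with none, and its difference of -1.43 was -0.35 with normexp. Of the genes that lipid-modify or release ligands, 3 of 6 were tested and 0 passed. Their median was -0.52, with Disp1 at 0.54 (adjusted p = 0.365) and Hhat at -0.52 (adjusted p = 0.392 by limma).

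In the lists of genes acting inside the cell, most genes were tested and 0 passed. The core genes Gli1, Gli2 and Sufu, which also act there, were dim, as given above. Of 13 kinases, ubiquitin ligases and scaffolds that act on Gli proteins, 11 were tested, with 5 differences above 0, 6 below and a median of -0.02. The smallest p belonged to Btrc, a subunit of the ubiquitin ligase that prompts Gli processing (0.76 ± 0.25, adjusted p = 0.153), and to the kinase Ulk3 (0.46 ± 0.22, adjusted p = 0.275 by limma). Of 21 genes of the primary cilium, 19 were tested and all 19 were above background on all 6 arrays. Their median was 0.22, with 12 above and 7 below 0. Ift57, a part of the transport complex that builds the cilium, had the smallest p (0.67 ± 0.24, adjusted p = 0.177). Next came Kif3b (0.61 ± 0.28, adjusted p = 0.275 by limma).

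**Figure D3:**
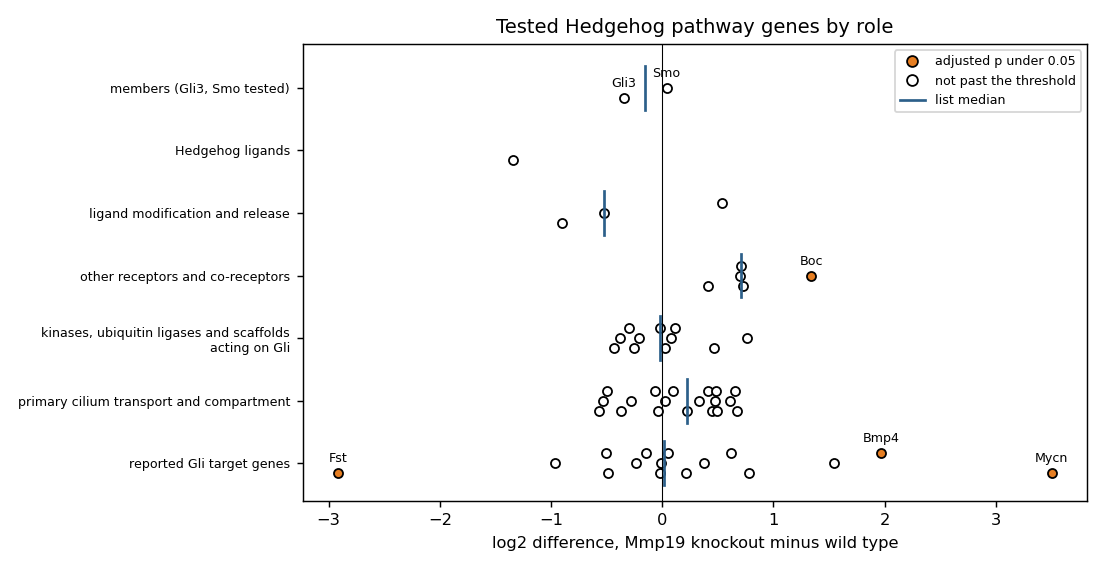
Log2 difference of knockout minus wild type (horizontal axis) for each tested gene, by role in the pathway, with filled points for an adjusted p below the threshold and blue bars for list medians. The 4 genes past the threshold, Boc, Mycn, Bmp4 and Fst, lie among the receptors and the reported Gli targets.

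Of 18 genes reported as Gli targets, 16 were tested, 2 rose, 1 fell and the median was 0.02. Mycn, a proliferation-promoting transcription factor, had -0.27, -0.18 and -0.50 in knockout cells, against -4.37, -3.64 and -3.45 in wild-type cells, where only replicate 3 was above background. It rose by 3.50 ± 0.28 (SE, adjusted p = 0.00356 by limma) and by 1.64 under normexp. It entered the test through the knockout arrays, and the size of the difference rests on wild-type values at background on 2 of 3 arrays. Bmp4, a secreted growth factor of the TGF-beta family, had 3.42, 2.87 and 3.09 in knockout cells, against 0.90, 1.32 and 1.25 in wild-type cells. Its probe A_55_P2154387 rose by 1.97 ± 0.24 (SE, adjusted p = 0.0114 by limma), whereas its other probe was at background on all arrays. The call was lost with the slide as a block (adjusted p = 0.0536), with no criterion for dim probes (0.0751) and without knockout replicate 3 (0.0755) or wild-type replicate 3 (0.0642). Fst, follistatin, which binds and blocks activins, was the gene that fell. It had 0.65, 0.89 and 1.32 in knockout cells, against 3.56, 4.09 and 3.94 in wild-type cells, a log2 difference of -2.91 ± 0.26 (SE, adjusted p = 0.00439 by limma) that passed in 18 of 18 alternatives. Within slides the difference was positive on all 3 for Mycn and Bmp4 and negative on all 3 for Fst. The groups do not overlap for these genes, so the shared sign follows from the same values and adds no support. Of the marker genes tested, 6 of 7 mesothelial, 4 of 6 mural and 6 of 8 fibroblast genes had a difference above 0. The other 1, 2 and 2 lay below 0, none past the threshold. The part of these markers in the calls of Mycn, Bmp4 and Fst was not tested. Gli1 and Ptch1, commonly used as readouts of Hedgehog activity, were at background in both groups.

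**Figure D4:**
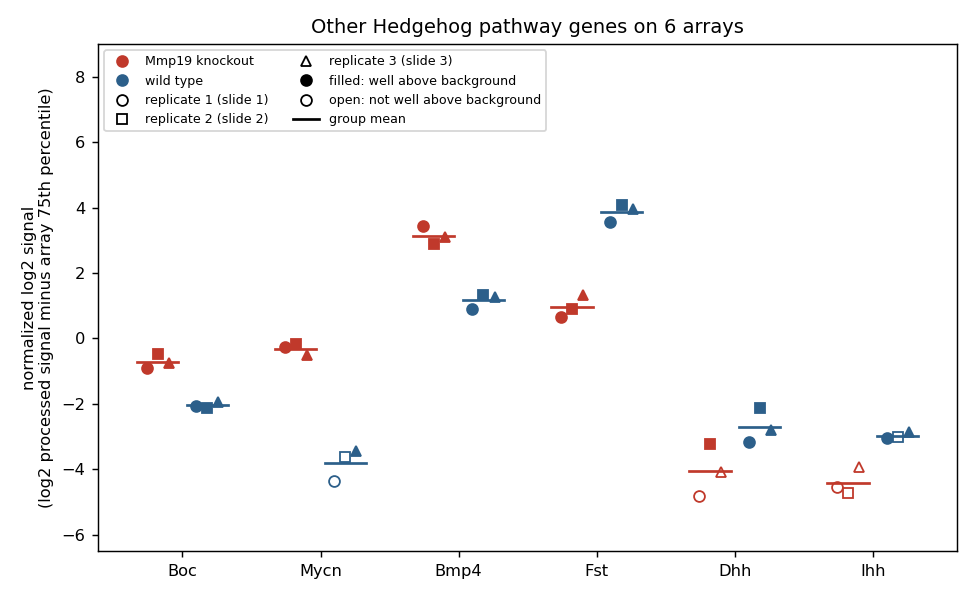
Normalized log2 signal (vertical axis) on each array for the 4 pathway genes past the threshold and for the ligands Dhh and Ihh, with knockout arrays in red left of wild-type arrays in blue, filled markers for arrays well above background and bars for group means. The groups do not overlap for any of the 6 genes, as for 29.5% of all probes tested. The 4 were drawn because they passed, so their separation adds no support. Dhh and Ihh lay at or near background in knockout cells, and Mycn is filled on 1 wild-type array only.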

How the data were processed

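Per the labels' protocols, 0.5 µg of RNA from each of 6 cultures was amplified, marked with the dye Cy3 and read on an Agilent array of 1 colour. The deposited scanner tables hold spot intensities, with a background-subtracted processed intensity made by Agilent Feature Extraction 10.7.3.1 per the file headers, whereas the submitters' processing notes name version 9.1. A table of log2 values for 35844 probes, deposited by the authors, has column medians from 5.51 to 5.76. Each of its columns followed its own array most closely, and its centring between arrays stays unknown. It served as an alternative.

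Control spots and outlier flags were left out, spots of a probe were averaged, and the 75th percentile of log2 processed intensity was subtracted from each array. Groups were compared two-sided with limma 3.58.1 (lmFit, eBayes) in R 4.3.3, with Benjamini-Hochberg adjustment over the 24214 probes tested. Simulated data with known changes were used to test the fit. Of several tested probes, that with the highest mean over the arrays stood for the gene. Probes were named by RefSeq accession through a table of GRCm38.p6, which matched 26413 of 55681 probes (47.4%). The array design was annotated on mm9, so only names and chromosomes were taken from that table, and promoter windows came from a RefSeq table of GRCm38.p6. Several probes of a gene were all reported for the 7 genes. The number of arrays limits the precision.

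The text names all 7 genes and Mmp19. From each pathway list it names the genes past the threshold, up to 4, or, where none passed, the 2 with the smallest p. For each tested member it also names the 2 genes with the most similar array pattern. Shh, Ihh, Cdon, Gas1, Gpc3, Lrp2, Sfrp1, Scube2 and cell type markers fall outside this rule and were named to complete a list or after their values were seen. The members and lists were chosen with earlier results of these data known. One listed gene is not reported here and was left out of the list counts.

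Same-numbered knockout and wild-type arrays shared a slide. The deviations of such arrays from their group means correlated at 0.0958, -0.0206 and 0.210, so the numbers were not treated as pairs. The alternatives were normexp, other scalings, other background criteria, the authors' log2 table, a trended robust prior, array weights, the slide as a block and each array left out. Other background criteria, the prior and the block leave a difference of means unchanged, so counts of signs include repeats of the main value.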

Additional observations from a re-analysis of the deposited data

How the results depend on the processing

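Of the 7 core genes, 0 passed in any of the 18 alternatives, although the number tested ran from 2 to 7. Probes past the threshold numbered 1124, against 633 with normexp, 111 with no criterion for dim probes, 650 with probes above background on all arrays and 5055 with gene-by-gene array weights, which were used because the REML weights did not converge. With the replicate block, which is also the slide block, they numbered 385, but the labels give no pairing. Leaving out 1 array gave 107 (knockout replicate 3) to 1716 (wild-type replicate 2), with 116 without wild-type replicate 3. The 4 calls in the pathway lists became 2 with no criterion and in the replicate block, 12 with array weights, and 2 (without knockout replicate 3 or wild-type replicate 3) to 5 (without wild-type replicate 2) with 1 array left out. The criterion of 2 arrays, chosen after seeing the data, gave 5. Scaling to the probes above background on all arrays moved the median of all probes to -0.04, against 0.07, and the split to 608 higher and 563 lower, against 697 and 427. The cause of these shifts was not tested. Dimness limits what can be said of Gli1, Ptch1, Hhip, Gli2 and Sufu.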

Other observations

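Several further pathway genes separated wild-type replicate 2 from the other arrays of its group. They were chosen after their values were seen and none passed the threshold between groups. Gas1, a co-receptor for Hedgehog ligands, had normalized log2 values of 0.65, 1.04 and 0.87 in knockout cells, against 1.55, -2.10 and 1.01 in wild-type replicates 1, 2 and 3. Sfrp1, a secreted Wnt antagonist among the reported Gli targets, had 5.14, 4.94 and 5.11 in knockout cells, against 5.36, 0.80 and 4.39 in wild-type cells. Scube2, which helps release ligands, ran the other way on that array, with -0.47, -1.28 and -1.07 in knockout cells, against -1.06, 1.82 and -0.89 in wild-type cells. Lrp2, an endocytic receptor that binds the ligand, varied in another manner, with -0.30, 1.66 and 1.03 in knockout cells, against -2.92, 2.02 and 1.12 in wild-type cells, where replicate 1 was the low array. Their differences between groups were 0.70 ± 0.89 for Gas1, 1.55 ± 1.07 for Sfrp1, -0.90 ± 0.76 for Scube2 and 0.72 ± 1.25 for Lrp2 (SE).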
